A study of Mus musculus with 14 samples.

Results

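The genes described here encode 7 serine proteases and 2 inhibitors of such proteases. The proteases are Tmprss2, Tmprss13, Tmprss4, Tmprss11g, St14, Prss8 and Prss22, and the inhibitors are Spint1 and Spint2. They are grouped as membrane serine proteases and their inhibitors, a name that was not checked for each protein. Their RNA was measured in the epithelium of the developing mouse bladder and urethra. The 9 genes were taken by symbol from the 55228 genes counted by RNA-seq, and all 9 were found in both count tables. The values that led to their choice are not recorded, and earlier results of every comparison were known by then. Each test below therefore describes its gene and is not independent evidence for it.

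The 14 libraries came from untreated wildtype female CD-1 embryos. There were 3 libraries of bladder epithelium and 3 of urethral epithelium at E18.5, and 4 of bladder epithelium and 4 of urethral epithelium at E14.5. The epithelium was loosened with trypsin and pulled from the mesenchyme with forceps, and the females of a litter were pooled, so differences between animals are not visible. The sampling notes give 3 litters for each kind of sample while E14.5 has 4 libraries per tissue, so p-values measure the spread between libraries, some of which may share a litter.

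Type II transmembrane serine proteases sit in the cell membrane by an N-terminal anchor and cut proteins at the cell surface, often after activation by another protease. Matriptase, encoded by St14, works in epithelia with prostasin, a protease held by a lipid anchor and encoded by Prss8. The Kunitz inhibitors HAI-1 (Spint1) and HAI-2 (Spint2) hold both in check, and mouse embryos that lack either inhibitor die. Known targets include the epithelial sodium channel, the urokinase precursor, the hepatocyte growth factor precursor, the receptor PAR2 and the adhesion protein EpCAM.

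Library totals ran from 21101269 to 36810672 counts. Levels are given as CPM, counts relative to the library's total, after scaling by the trimmed mean of M values (TMM), which sets libraries level over the bulk of all genes. All 6 general epithelial genes listed (Epcam, Cdh1, Esrp1, Esrp2, Rab25 and Ap1m2) were detected in every library. Their summed level ran from 1664 to 2212 CPM in E18.5 bladder, from 2468 to 2786 CPM in E18.5 urethra, from 2687 to 3172 CPM in E14.5 bladder and from 1190 to 2684 CPM in E14.5 urethra. A list of 13 mesenchymal genes summed to 19540 to 29930 CPM in E18.5 bladder, 4420 to 5359 CPM in E18.5 urethra, 880.7 to 4197 CPM in E14.5 bladder and 2086 to 5846 CPM in E14.5 urethra, with none of the 13 at 0 in any library. The lists for smooth muscle, immune, endothelial and erythroid cells were also highest in E18.5 bladder. Fewer epithelial cells and less of an RNA per cell cannot be told apart in these pools, and the part of the other cells in the results was not tested.

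For that reason each gene is also given as counts per 1000 counts of the 6 epithelial genes, which include none of the 9. Scaling the tests by those 6 genes moved the median log2 fold change over every gene tested from near 0 to 0.47 for bladder against urethra at E18.5, -0.90 for the same at E14.5, 0.60 for E18.5 against E14.5 in bladder, -0.72 for the same in urethra and 1.32 for the interaction of tissue and stage. A log2 fold change on this epithelial scale is relative to the summed counts of the 6 genes, so that 0 means moving as that sum did. Single genes of the 6 could differ from their sum. Epcam itself was at log2 -0.615 on this scale for bladder against urethra at E18.5 and -0.64 at E14.5. It was at -0.072 for stage in bladder, -0.097 for stage in urethra and 0.025 for the interaction. Less the median of all genes, a reading added after the values were seen, 0 of the members' differences had another sign than under TMM in any of the 5 comparisons. Taking off the median largely undoes the common shift, so this was all but set in advance and is not a separate check. Among the E14.5 urethral libraries, replicate 1 stood apart, with an epithelial sum of 2684 CPM against 1190 to 1647 CPM in the other 3. Stage cannot be told apart from any difference in when the libraries were made, since the labels give no batch.

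Bladder and urethra differed at both stages. A gene passed where edgeR's quasi-likelihood test, adjusted by Benjamini-Hochberg over all genes tested, gave a p under 0.05. At E18.5, 6 of 9 members passed the test, where 37.9% of all 17513 genes tested did: Tmprss2, Tmprss13 and Prss8 were higher in bladder, and Tmprss4, Tmprss11g and St14 were lower. The count was 3 without bladder replicate 2, 4 without bladder replicate 3 or urethra replicate 1, and 5 without any other E18.5 library. For these smaller fits the share of all genes is not given here. At E14.5, 7 of the 8 members tested passed, where 44% of all 16697 genes did, and all 7 were higher in bladder. Tmprss11g fell below the filter on low counts there, and Prss22 did not pass. The median log2 fold change of the members tested was -0.33 at E18.5 and 1.54 at E14.5, against -0.026 at E18.5 and -0.035 at E14.5 over all genes tested. By direction, 19.3% of all genes were higher and 18.6% lower in bladder at E18.5, and 23.1% higher and 20.9% lower at E14.5. The libraries of the tissues did not overlap for 5 of the 9 members at E18.5 (51.1% of all genes) and for 7 of the 8 tested at E14.5 (40.4%).

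Between stages, 8 of 9 members were higher at E18.5 than at E14.5 in urethra, where 33% of all 18286 genes passed (17.3% higher and 15.7% lower), with a median log2 fold change of 1.32 against 0.001 over all genes. In bladder 1 of 9, St14, passed and was lower at E18.5, where 40.3% of all genes passed (19.9% higher and 20.4% lower). Stages did not overlap for 7 members in urethra (38.5% of all genes) and for 4 in bladder (46.2%). The difference between tissues itself changed with stage for 6 of 9 members (Tmprss4, Tmprss11g, St14, Prss8, Spint1 and Spint2), where 22.9% of all genes passed this interaction test (12.2% positive and 10.7% negative). In each of the 6 but Tmprss11g the bladder's lead over the urethra was smaller at E18.5, or had turned. Tmprss11g was too low to be tested at E14.5, with 37 counts in bladder and 11 in urethra. No lead of the bladder was shown for it there, and it was lower in bladder at E18.5. Without E14.5 urethra replicate 1, 9 of 9 passed for stage in urethra and 9 of 9 for the interaction. The share of all genes passing without that library is not given here, so these counts do not single out the members. On the epithelial scale 3 of 9 kept the interaction (Tmprss4, Tmprss11g and Spint1), where 69.8% of all genes passed, 68.3% of all genes with a positive sign. For stage 6 of 9 passed in urethra, where 50.1% of all genes did, and 5 of 9 in bladder (Tmprss2, Tmprss11g, Tmprss13, Prss22 and Spint2), where 37.1% did, all of these members higher at E18.5. Of the 5 in bladder, Spint2 at log2 0.44 lay below the median of all genes. With the mean level of the mesenchymal list as a covariate, 0 of 9 passed for tissue at E18.5, for stage in bladder and for the interaction, in fits that called 4, 591 and 69 of all genes. That list summed to at least 19540 CPM in E18.5 bladder and at most 5846 CPM in any other library. These fits therefore cannot part the covariate from tissue or stage. At E14.5, 5 of 8 passed with that covariate, without Tmprss13 (adjusted p = 0.075) and Spint2 (0.0907), and 9 of 9 passed for stage in urethra. The share of all genes passing for stage in urethra with the covariate is not given here, so that count does not single out the members.

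**Figure D1:**
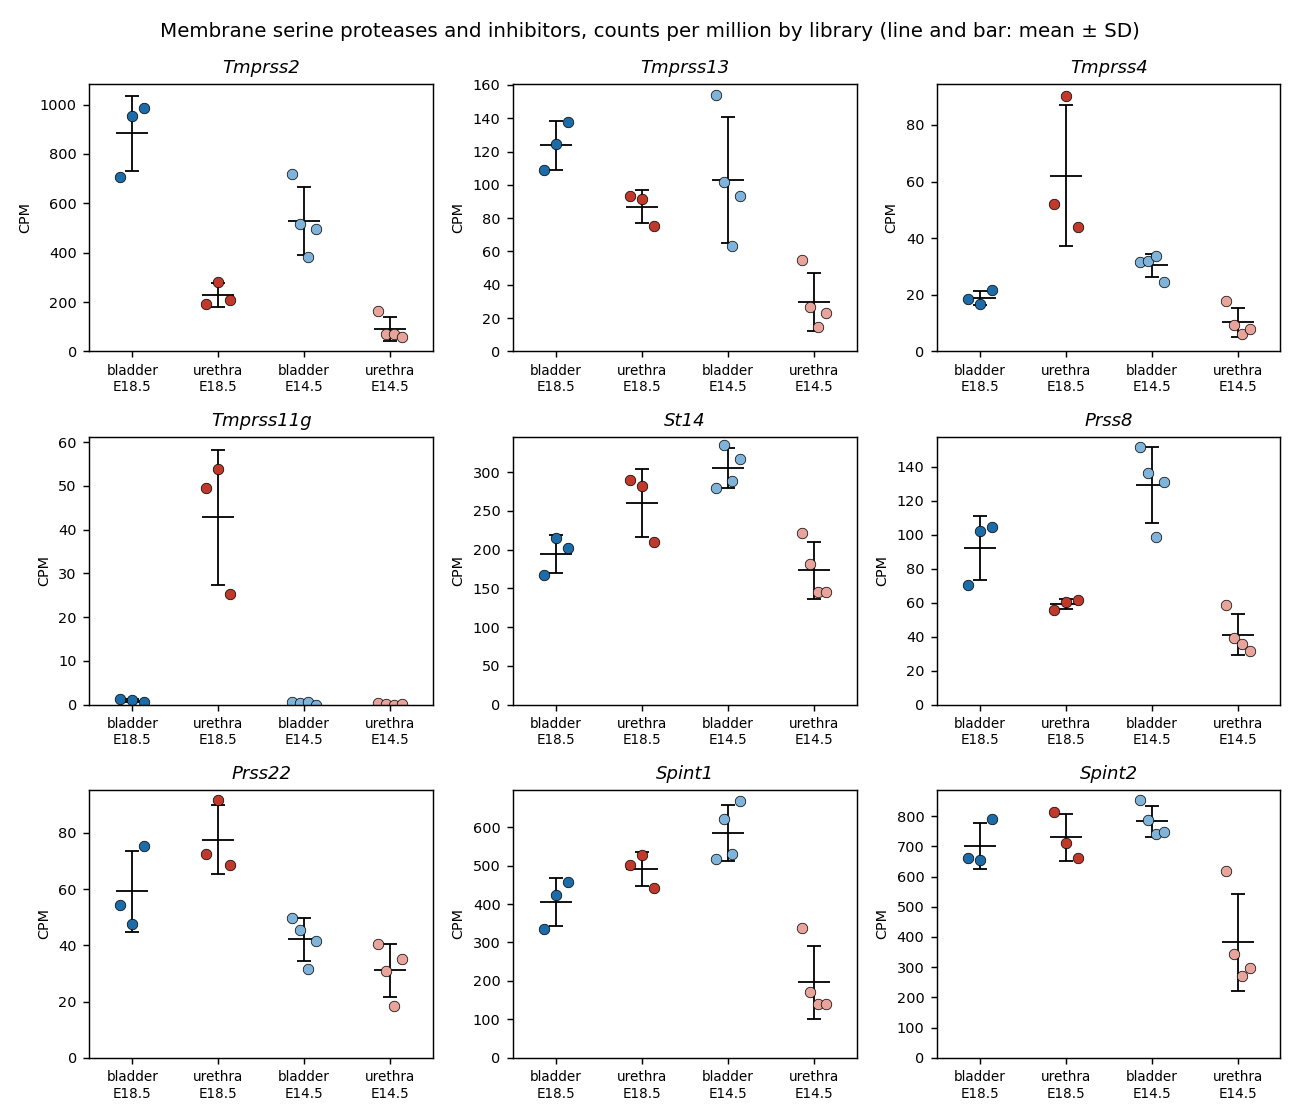
CPM of each gene (vertical axes, each from 0) in every library of the 4 groups (horizontal axes); points are libraries, the line and bar are the mean ± SD with n = 3 at E18.5 and n = 4 at E14.5. Tmprss2 points are high in both bladder groups, Tmprss11g points rise off the axis in E18.5 urethra (25.2 to 53.9 CPM), and E14.5 urethra has the lowest mean for all 9 genes, with Tmprss11g near 0 in every group but E18.5 urethra.

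Tmprss2 encodes a transmembrane protease best known for priming the spike proteins of coronaviruses and the haemagglutinin of influenza viruses. It lies on GRCm38 chromosome 16, 97564682 to 97611195, minus strand. Tmprss2 stood at 708.6, 952.6 and 987.9 CPM in E18.5 bladder, against 190.5, 282.9 and 210.3 CPM in E18.5 urethra. In E14.5 bladder Tmprss2 had 717, 515.6, 382.9 and 496.3 CPM, against 163.4, 71.1, 69.4 and 57.3 CPM in E14.5 urethra. Every bladder library was above every urethral library of both stages, and E14.5 urethra replicate 1 was the highest of its group. The fold was 3.73 at E18.5 (95% interval 1.53 to 2.27 on the log2 scale, adjusted p = 0.000178) and 5.73 at E14.5 (log2 2.52 ± 0.36 SE, adjusted p = 0.00116, or log2 2.97 without replicate 1).

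On the epithelial scale Tmprss2 had its highest level in E18.5 bladder. It had 451 ± 27.5 counts per 1000 epithelial counts in E18.5 bladder (SD, n = 3), 87.5 ± 20.3 in E18.5 urethra (n = 3), 180 ± 50.4 in E14.5 bladder (n = 4) and 50.9 ± 10.1 in E14.5 urethra (n = 4). The tissue difference was log2 2.37 at E18.5 and 1.82 at E14.5 on this scale, both past the threshold. The E18.5 bladder libraries, at 425.9 to 480.4, all lay above the E14.5 bladder libraries, at 142.5 to 254.3. The stage difference in bladder was log2 0.74 in CPM and did not pass (95% interval 0.12 to 1.37, adjusted p = 0.0812), but was log2 1.33 ± 0.23 on the epithelial scale (adjusted p = 0.000358, against a median of 0.60). It also passed in CPM without E14.5 bladder replicate 1 (adjusted p = 0.0444) and in a fit of the bladder libraries alone (adjusted p = 0.0256). In urethra Tmprss2 was 2.52-fold higher at E18.5 (log2 1.34 ± 0.32, adjusted p = 0.00731), and by log2 0.78 on the epithelial scale (adjusted p = 0.0116). The interaction was log2 -0.59 (95% interval -1.49 to 0.30, adjusted p = 0.379), passed without E14.5 urethra replicate 1 (log2 -1.05, adjusted p = 0.0177) and was log2 0.55 on the epithelial scale (adjusted p = 0.136, against a median of 1.32), so a change of the tissue difference with stage was not established.

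The 250 bases before the RefSeq start of Tmprss2 are shown because this gene had the highest mean of the proteases per kilobase of exon in bladder at both stages. They were searched on both strands for GGGCGG, the GC box bound by Sp1-type factors, for TATAAA, and for AACNNGTT, the outer letters of the site of grainyhead-like epithelial factors. Among 32851 mouse promoter windows of this length, 32.74% held GGGCGG, 12.37% held TATAAA and 3.64% held AACNNGTT. None of these words is in the Tmprss2 window (GRCm38.p6, chr16:97611196-97611445, minus strand, 61.6% GC), printed 5′ to 3′.
Tmprss2: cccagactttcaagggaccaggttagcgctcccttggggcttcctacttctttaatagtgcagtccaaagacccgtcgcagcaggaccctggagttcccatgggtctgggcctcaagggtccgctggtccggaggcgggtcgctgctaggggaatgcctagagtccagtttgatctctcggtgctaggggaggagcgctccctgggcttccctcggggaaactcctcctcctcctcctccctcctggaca

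Tmprss13 encodes a transmembrane protease that in mice is needed for the skin barrier. The gene is on chromosome 9, 45319100 to 45347581, plus strand, 115 kb and 4 genes away from Tmprss4. Tmprss13 had 108.7, 124.5 and 137.7 CPM in E18.5 bladder, against 93.6, 91.3 and 75.6 CPM in E18.5 urethra. At E14.5 it had 153.7, 101.8, 63.3 and 93.1 CPM in bladder, against 54.7, 26.5, 14.7 and 23.1 CPM in urethra. The tissue groups did not overlap at either stage, and the E14.5 bladder libraries spread widely. The fold was 1.37 at E18.5 (log2 0.46 ± 0.13, adjusted p = 0.027) and 3.40 at E14.5 (log2 1.77 ± 0.41, adjusted p = 0.00923). At E18.5 it no longer passed on leaving out bladder replicate 2 (adjusted p = 0.0633), bladder replicate 3 (0.0768) or urethra replicate 3 (0.0932), but on the epithelial scale the log2 fold change was 0.94 (adjusted p = 0.000539, against a median of 0.47).

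Stage moved Tmprss13 in urethra, where it was 2.92-fold higher at E18.5 (log2 1.55 ± 0.36, adjusted p = 0.00612). In bladder the difference was log2 0.26 (95% interval -0.44 to 0.96), and log2 0.86 on the epithelial scale (adjusted p = 0.0119, against 0.60). Per 1000 epithelial counts Tmprss13 had 63.5 ± 1.64 in E18.5 bladder, 33.1 ± 2.28 in E18.5 urethra, 35.0 ± 13.5 in E14.5 bladder and 16.4 ± 3.29 in E14.5 urethra (SD, n = 3 and 3 at E18.5, 4 and 4 at E14.5). The interaction of log2 -1.28 did not pass (adjusted p = 0.0883). It passed without E14.5 bladder replicate 3 (adjusted p = 0.0464) or E14.5 urethra replicate 1 (0.00394).

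Tmprss11g belongs to the HAT/DESC branch of the transmembrane proteases, whose genes lie together on mouse chromosome 5. It lies at 86485876 to 86518600, minus strand. Tmprss11g had 1.24, 1.03 and 0.541 CPM in E18.5 bladder (64 counts in all), against 49.5, 53.9 and 25.2 CPM in E18.5 urethra (3892 counts). At E14.5 it had 0.497, 0.285, 0.506 and 0 CPM in bladder (37 counts), against 0.308, 0.082, 0 and 0.079 CPM in urethra (11 counts). Only the E18.5 urethral libraries carried it at more than a few CPM. It was 47.1-fold lower in bladder at E18.5 (log2 -5.56 ± 0.39, adjusted p = 3.64e-05) and was not tested at E14.5, where it was too low.

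In urethra Tmprss11g rose with stage by a fitted log2 of 8.50 ± 0.78 (adjusted p = 5.73e-05). The size rests on 11 counts at E14.5, of which replicate 1 held 7, and was log2 9.53 without that library. The interaction was log2 -6.94 ± 1.07 (adjusted p = 0.00141) and -7.96 without that library. On the epithelial scale the tissue difference at E18.5 was log2 -5.03 and the stage difference in urethra log2 7.97, both past the threshold. The stage difference in bladder, log2 1.56 in CPM (adjusted p = 0.0919), was log2 2.16 on the epithelial scale (adjusted p = 0.0221), with at most 27 counts in a bladder library.

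The upstream 250 bases of Tmprss11g are shown because this gene had the largest fold of the 9. They hold AACNNGTT in a pair, 1 base apart, that begin 56 and 47 bases before the RefSeq start, and neither GGGCGG nor TATAAA. The window is chr5:86518601-86518850, minus strand, 38.8% GC, and capitals mark AACNNGTT, a match of letters that is not a shown site.
Tmprss11g: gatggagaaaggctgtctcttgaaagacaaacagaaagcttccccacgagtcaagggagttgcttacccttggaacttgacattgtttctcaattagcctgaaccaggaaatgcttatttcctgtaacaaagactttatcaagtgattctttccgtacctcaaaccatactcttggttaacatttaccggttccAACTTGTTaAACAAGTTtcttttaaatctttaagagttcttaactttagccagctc

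Tmprss4 encodes a transmembrane protease that can activate the epithelial sodium channel and the urokinase precursor in cell assays. It lies on chromosome 9, 45172726 to 45204092, minus strand. Tmprss4 had 18.47, 16.88 and 21.66 CPM in E18.5 bladder, against 52.0, 90.3 and 44.1 CPM in E18.5 urethra. At E14.5 the order of the tissues was the other way, with 31.5, 31.8, 33.8 and 24.6 CPM in bladder against 17.9, 9.23, 6.07 and 7.92 CPM in urethra. The groups did not overlap at either stage. Tmprss4 was 3.39-fold lower in bladder at E18.5 (log2 -1.76 ± 0.26, adjusted p = 0.0012) and 2.91-fold higher in bladder at E14.5 (log2 1.54 ± 0.31, adjusted p = 0.00509).

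The turn of Tmprss4 passed the interaction test at log2 -3.28 ± 0.46 (adjusted p = 0.000852), and at log2 -2.13 on the epithelial scale (adjusted p = 0.000792). It was 6.06-fold higher in E18.5 than in E14.5 urethra (log2 2.60 ± 0.33, adjusted p = 0.00023). In bladder it had a log2 fold change of -0.68 for E18.5 against E14.5 (95% interval -1.31 to -0.05, adjusted p = 0.113), which was -0.09 on the epithelial scale. Of the members tested at both stages, Tmprss4 and St14 passed in opposite directions, and Tmprss4 alone did so also on the epithelial scale, at log2 -1.28 at E18.5 (adjusted p = 0.00142) and 0.85 at E14.5 (adjusted p = 0.0162).

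**Figure D2:**
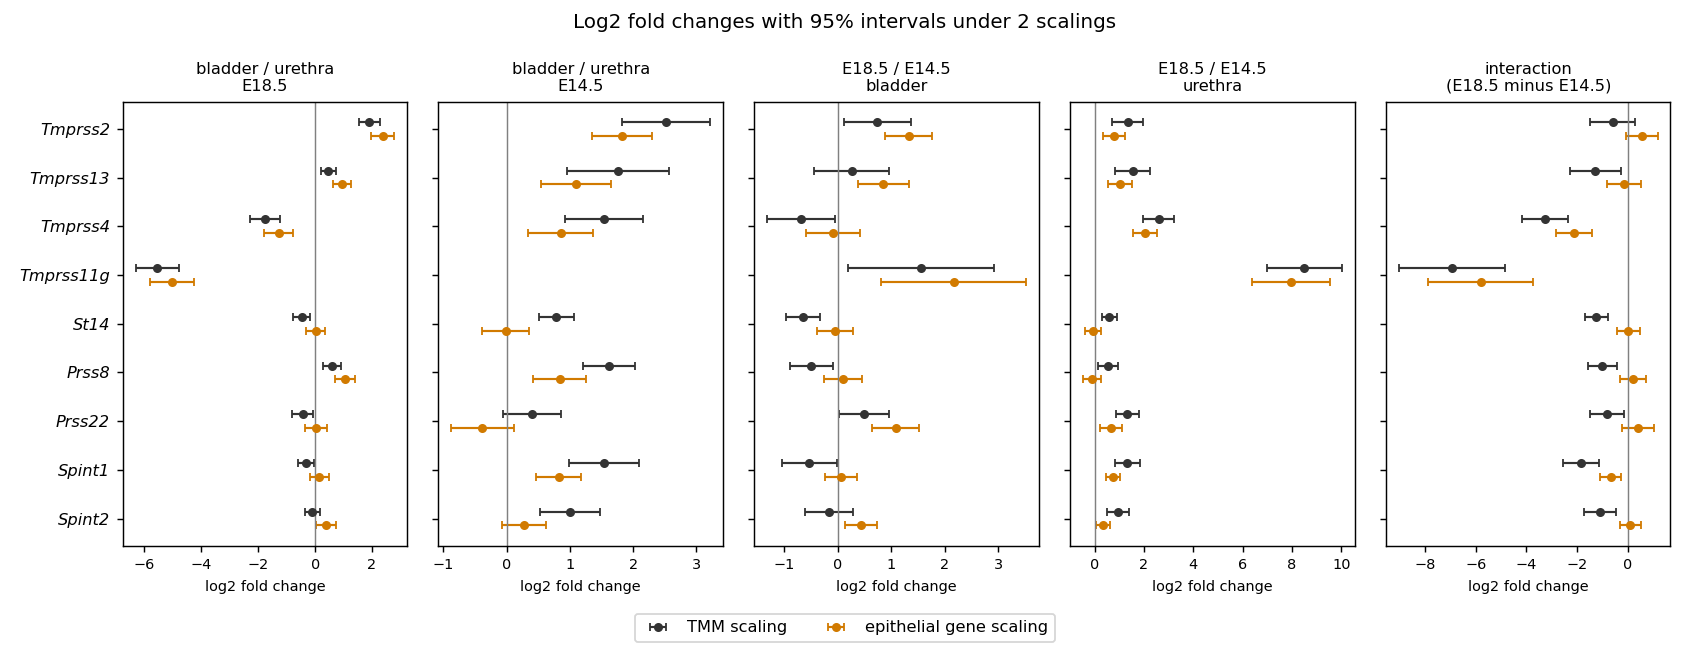
Log2 fold change of each gene (horizontal axes) in 5 comparisons, by TMM scaling (dark) and by scaling to 6 epithelial genes (orange). Bars are 95% intervals by the normal approximation, and the grey line is 0. Tmprss4 and Tmprss11g lie left of 0 for bladder against urethra at E18.5 under both scalings, Tmprss2 lies right of 0 at both stages under both, and the orange St14 points lie near 0 in all 5 panels, at -0.078 to 0.027.

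St14 encodes matriptase, which is made across most epithelia. Its gene spans chromosome 9, 31089402 to 31131853, minus strand. In CPM St14 had 166.9, 214.5 and 202.4 in E18.5 bladder, against 289.6, 282.3 and 210.2 in E18.5 urethra. In E14.5 bladder it had 279.1, 335.6, 288.7 and 316.8 CPM, against 221.1, 181.5, 145 and 144.9 CPM in E14.5 urethra. The E18.5 groups touched, with bladder replicate 2 above urethra replicate 3. St14 was 1.39-fold lower in bladder at E18.5 (log2 -0.48 ± 0.15, adjusted p = 0.0391, and 0.01 on the epithelial scale) and 1.73-fold higher in bladder at E14.5 (log2 0.79 ± 0.14, adjusted p = 0.00301, and -0.02 on the epithelial scale). The E18.5 call was lost on leaving out any of the 3 bladder libraries or urethra replicate 1 or 2 (adjusted p from 0.0708 to 0.152).

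Against the epithelial genes St14 was level. It had 100 ± 8.34 counts per 1000 epithelial counts in E18.5 bladder, 99.2 ± 12.4 in E18.5 urethra, 104 ± 3.82 in E14.5 bladder and 105 ± 16.6 in E14.5 urethra (SD, n as above). All 4 groups overlapped. In CPM St14 was 1.57-fold lower at E18.5 in bladder (log2 -0.65 ± 0.16, adjusted p = 0.00658, and -0.05 on the epithelial scale) and 1.51-fold higher at E18.5 in urethra (log2 0.59 ± 0.16, adjusted p = 0.0135, and -0.08 on the epithelial scale). The call in urethra was lost without E18.5 urethra replicate 1 (adjusted p = 0.0573) or 2 (0.0531). The interaction was log2 -1.24 ± 0.23 in CPM (adjusted p = 0.00326) and 0.03 on the epithelial scale (95% interval -0.44 to 0.49).

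Prss8 encodes prostasin, the partner of matriptase and an activator of the epithelial sodium channel. The gene is on chromosome 7, 127925716 to 127930104, minus strand, and its exons overlap those of Kat8 on the other strand, which reached 930 counts in a library. The strand setting of the counting is not given in the sources used here, so reads of the overlap may be shared. Prss8 had 70.4, 102 and 104.2 CPM in E18.5 bladder, against 55.6, 60.2 and 61.5 CPM in E18.5 urethra. At E14.5 it had 151.3, 136, 98.7 and 131.2 CPM in bladder, against 58.8, 39.1, 35.4 and 31.5 CPM in urethra. The tissues did not overlap at either stage. Prss8 was higher in bladder by log2 0.59 ± 0.16 at E18.5 (adjusted p = 0.0193) and by log2 1.62 ± 0.21, or 3.07-fold, at E14.5 (adjusted p = 0.000806).

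Prss8 no longer passed at E18.5 on leaving out bladder replicate 2 (adjusted p = 0.0601), bladder replicate 3 (0.055) or urethra replicate 1 (0.0742). On the epithelial scale the tissue difference was log2 1.05 at E18.5 (adjusted p = 0.000372) and 0.84 at E14.5 (adjusted p = 0.00657). Per 1000 epithelial counts Prss8 had 47.0 ± 4.56 in E18.5 bladder, 22.7 ± 2.51 in E18.5 urethra, 43.9 ± 7.09 in E14.5 bladder and 24.5 ± 3.58 in E14.5 urethra. The interaction was log2 -1.01 ± 0.29 in CPM (adjusted p = 0.0258) and 0.21 on the epithelial scale (95% interval -0.30 to 0.72). Stage differences did not pass, at log2 -0.49 in bladder (95% interval -0.89 to -0.08, and 0.10 on the epithelial scale) and 0.52 in urethra (95% interval 0.12 to 0.92, and -0.11 on the epithelial scale). The stage difference passed in bladder without E14.5 bladder replicate 3 (adjusted p = 0.0352) and in urethra without E14.5 urethra replicate 1 (0.00413).

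Set against each other within a library, where no scaling enters, Prss8 and St14 gave a ratio that parted the tissues. Per kilobase of exon, Prss8 over St14 was 1.94 ± 0.191 in E18.5 bladder, 0.96 ± 0.221 in E18.5 urethra, 1.76 ± 0.348 in E14.5 bladder and 0.974 ± 0.101 in E14.5 urethra. The lowest bladder library stood at 1.41 and the highest urethral library at 1.21.

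Prss22 encodes a tryptase of airway and other surface epithelia that can activate the urokinase precursor. It lies on chromosome 17, 23993534 to 23998100, minus strand. Prss22 had 54.5, 47.6 and 75.5 CPM in E18.5 bladder, against 72.4, 91.7 and 68.7 CPM in E18.5 urethra. In E14.5 bladder it had 49.9, 45.5, 31.6 and 41.5 CPM, against 40.5, 30.8, 18.4 and 35.0 CPM in E14.5 urethra. The tissues overlapped at both stages. The log2 fold change was -0.44 at E18.5 (95% interval -0.82 to -0.06, adjusted p = 0.107, and 0.03 on the epithelial scale) and 0.41 at E14.5 (95% interval -0.05 to 0.86, adjusted p = 0.186, and -0.38 on the epithelial scale). It passed at E18.5 without bladder replicate 3 (adjusted p = 0.0186).

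With stage Prss22 was 2.49-fold higher at E18.5 in urethra (log2 1.32 ± 0.24, adjusted p = 0.00167), with no overlap. In bladder the log2 fold change was 0.49 (95% interval 0.02 to 0.96, adjusted p = 0.124), and 1.08 on the epithelial scale (adjusted p = 0.00159, against a median of 0.60). Per 1000 epithelial counts it had 30.3 ± 5.49 in E18.5 bladder, 29.7 ± 4.89 in E18.5 urethra, 14.3 ± 2.50 in E14.5 bladder and 18.6 ± 4.70 in E14.5 urethra. On that scale stage, and not tissue, passed for this gene. The interaction of log2 -0.83 in CPM did not pass (adjusted p = 0.101; 0.041 without E14.5 urethra replicate 1) and was 0.41 on the epithelial scale.

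**Figure D3:**
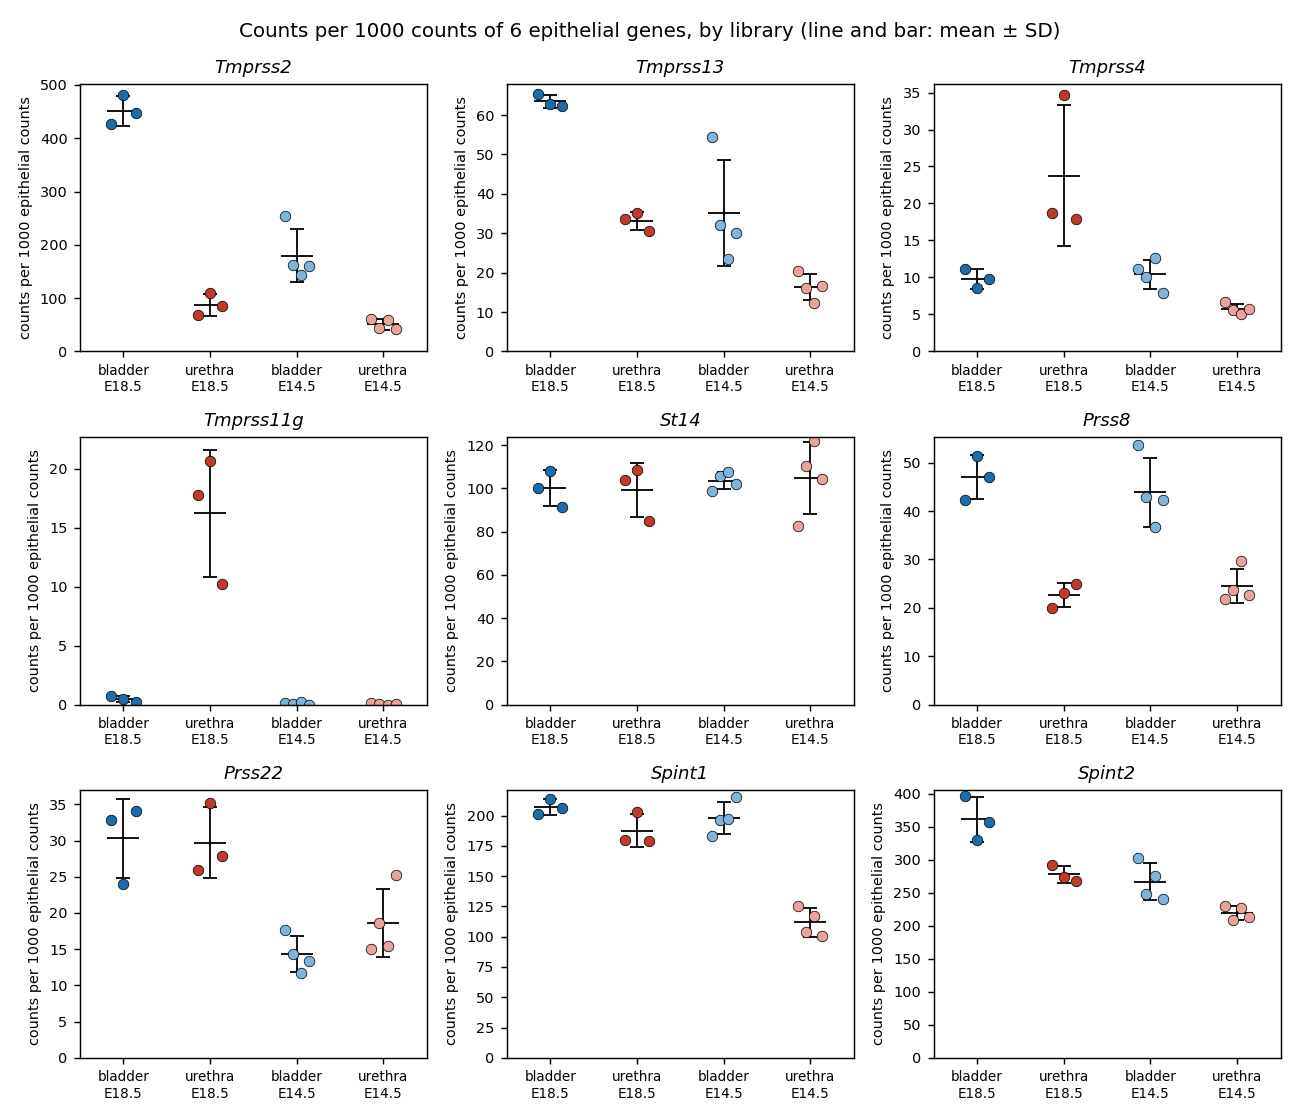
Counts of each gene per 1000 summed counts of Epcam, Cdh1, Esrp1, Esrp2, Rab25 and Ap1m2 (vertical axes, from 0) in every library of the 4 groups; the line and bar are the mean ± SD, with n = 3 at E18.5 and n = 4 at E14.5. St14 is level near 100 in all groups, Prss8 parts by tissue, Prss22 parts by stage within each tissue (24 to 34.11 against 11.77 to 17.68 in bladder), and Spint1 is low in E14.5 urethra (100.2 to 125.7).

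Spint1 encodes HAI-1, a transmembrane Kunitz inhibitor of matriptase and of the hepatocyte growth factor activator. It lies on chromosome 2, 119237362 to 119249527, plus strand. Spint1 had 334.4, 423.9 and 456.8 CPM in E18.5 bladder, against 501.9, 528.4 and 442.9 CPM in E18.5 urethra. At E14.5 it had 517.4, 622.2, 529.7 and 668.5 CPM in bladder, against 337.3, 171.3, 139.7 and 139.2 CPM in urethra. E14.5 urethra was the low group, and replicate 1 in it was about as high as the lowest E18.5 bladder library. Spint1 was 2.91-fold higher in bladder at E14.5 (log2 1.54 ± 0.28, adjusted p = 0.00339; log2 1.93 without that replicate). At E18.5 the log2 fold change was -0.33 (95% interval -0.62 to -0.05, adjusted p = 0.103) and 0.14 on the epithelial scale.

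In urethra Spint1 was 2.49-fold higher at E18.5 (log2 1.32 ± 0.26, adjusted p = 0.00249). In bladder the log2 fold change was -0.53 (95% interval -1.05 to -0.01, adjusted p = 0.129) and 0.07 on the epithelial scale. The interaction was log2 -1.85 ± 0.37 (adjusted p = 0.00489). These results held on the epithelial scale, at log2 0.82 for bladder against urethra at E14.5 (adjusted p = 0.00338), 0.75 for stage in urethra (adjusted p = 0.00209) and -0.68 for the interaction (adjusted p = 0.0115). Per 1000 epithelial counts Spint1 had 207 ± 6.42 in E18.5 bladder, 188 ± 13.5 in E18.5 urethra, 198 ± 13.1 in E14.5 bladder and 112 ± 11.8 in E14.5 urethra, so E14.5 urethra stood below the other 3 groups with no overlap, replicate 1 included.

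Spint2 encodes HAI-2, an inhibitor of matriptase and prostasin whose loss in human infants causes a sodium-losing diarrhoea. Its gene spans chromosome 7, 29256323 to 29281912, minus strand. Spint2 had 660.1, 654.4 and 790.5 CPM in E18.5 bladder, against 814.9, 712.2 and 662.8 CPM in E18.5 urethra. In E14.5 bladder it had 854.8, 786.2, 742.3 and 748.9 CPM, against 616.7, 344, 270.6 and 295.7 CPM in E14.5 urethra. The E18.5 groups overlapped and the E14.5 groups did not. Spint2 was 2.01-fold higher in bladder at E14.5 (log2 1.01 ± 0.24, adjusted p = 0.0108; log2 1.34 without urethra replicate 1), while on the epithelial scale the log2 fold change was 0.28 and did not pass (adjusted p = 0.17).

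At E18.5 the tissue difference of Spint2 was log2 -0.11 (95% interval -0.37 to 0.15, adjusted p = 0.556), and 0.38 on the epithelial scale (adjusted p = 0.0931). In urethra it was 1.91-fold higher at E18.5 (log2 0.94 ± 0.22, adjusted p = 0.00723), and log2 0.34 on the epithelial scale (adjusted p = 0.0674). In bladder the stage difference was log2 -0.16 (95% interval -0.60 to 0.29), and 0.44 on the epithelial scale (adjusted p = 0.0319, against a median of 0.60). The interaction was log2 -1.09 ± 0.32 in CPM (adjusted p = 0.0272) and 0.10 on the epithelial scale. The interaction of Spint2, like that of Prss8, was lost on leaving out any of 8 libraries, with adjusted p up to 0.0841 for Spint2 and 0.0639 for Prss8.

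The windows before the RefSeq starts of Spint1 and Spint2 are shown because these inhibitors were the closest pair among the 9 across libraries, with a root mean square difference of 0.264 between their centred log2 CPM. Each holds GGGCGG or its reverse complement CCGCCC 3 times, marked in capitals. The words begin 115, 54 and 19 bases before the start in Spint1 and 124, 83 and 18 bases before it in Spint2. Neither holds AACNNGTT or TATAAA. The windows are chr2:119237110-119237359, plus strand, with 72.8% GC, and chr7:29281978-29282227, minus strand, with 69.6% GC. The Spint2 window ends 65 bases upstream of the gene as counted, so its RefSeq start is not the start of the counted gene.
Spint1: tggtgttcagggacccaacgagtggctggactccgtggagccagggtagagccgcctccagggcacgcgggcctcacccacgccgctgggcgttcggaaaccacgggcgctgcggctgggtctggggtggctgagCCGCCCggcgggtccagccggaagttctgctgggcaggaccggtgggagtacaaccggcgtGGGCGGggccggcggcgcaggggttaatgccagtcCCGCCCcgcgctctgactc
Spint2: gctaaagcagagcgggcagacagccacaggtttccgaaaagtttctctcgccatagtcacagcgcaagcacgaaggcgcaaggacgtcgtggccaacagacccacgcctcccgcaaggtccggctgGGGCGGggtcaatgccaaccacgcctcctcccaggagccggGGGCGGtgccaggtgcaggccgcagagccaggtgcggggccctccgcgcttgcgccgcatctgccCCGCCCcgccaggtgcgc

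Compared per kilobase of exon (RPKM), the inhibitors had the highest means in every group and Tmprss11g the lowest. Spint2 averaged 154 ± 16.9 and Spint1 146 ± 22.9 RPKM in E18.5 bladder, where Tmprss2 followed at 121 ± 20.8 RPKM and Prss8 at 49.8 ± 10.2 RPKM (SD, n = 3). In E18.5 urethra Spint1 averaged 177 ± 15.8 and Spint2 160 ± 17 RPKM, and the leading protease was Prss22 at 58.6 ± 9.31 RPKM, above St14 at 34.1 ± 5.75 RPKM. In E14.5 bladder Spint1 averaged 211 ± 26.4 RPKM and Tmprss2 led the proteases at 72.3 ± 19 RPKM, overlapping Prss8 at 69.8 ± 12 RPKM. In E14.5 urethra Spint2 averaged 83.8 ± 35 RPKM, and Prss22, St14 and Prss8 overlapped at 23.5, 22.7 and 22.2 RPKM. The ranges of Spint1 and Spint2 overlapped in every group, although within a library Spint2 over Spint1 was 0.818 to 0.986 in E18.5 urethra and 1.11 to 1.29 in E14.5 urethra.

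The make-up of the protease transcripts parted the tissues for some of the genes. Tmprss2 held 42.1 ± 1.93% of the summed RPKM of the 7 proteases in E18.5 bladder, 14.5 ± 1.62% in E18.5 urethra, 27.8 ± 2.37% in E14.5 bladder and 12.7 ± 2.96% in E14.5 urethra. Prss22 held 15.6 ± 2.98% in E18.5 bladder, 27.3 ± 0.757% in E18.5 urethra, 12.4 ± 0.48% in E14.5 bladder and 25.3 ± 5.56% in E14.5 urethra. For the shares of both genes the bladder and urethral libraries did not overlap at either stage, nor did they for St14. The shares of Prss8 and Tmprss13 overlapped between the tissues at both stages. A share also depends on the other proteases in the sum: the level of Prss22 itself overlapped between the tissues at both stages. Tmprss4 held 10.9 ± 2.62% and Tmprss11g 3.91 ± 1.08% in E18.5 urethra, against 2.59 ± 0.39% and 0.0686 ± 0.035% in E18.5 bladder. The RPKM of the 7 proteases over that of the 2 inhibitors was 0.952 ± 0.048 in E18.5 bladder, 0.637 ± 0.0768 in E18.5 urethra, 0.672 ± 0.118 in E14.5 bladder and 0.626 ± 0.0691 in E14.5 urethra. E18.5 bladder, at 0.899 to 0.993, stood above every other library, of which the highest had 0.837. Tmprss2 made up 42.1% of the protease sum in E18.5 bladder, and the ratio without Tmprss2 was not worked out. The higher ratio therefore does not show a general shift of the proteases over the inhibitors. St14 over Spint1 was highest in E14.5 urethra, at 0.344 ± 0.0706, against 0.175 ± 0.0122 in E18.5 bladder, 0.192 ± 0.0186 in E18.5 urethra and 0.19 ± 0.0121 in E14.5 bladder. These are ratios of transcripts, given as a description, and say nothing of active enzyme.

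**Figure D4:**
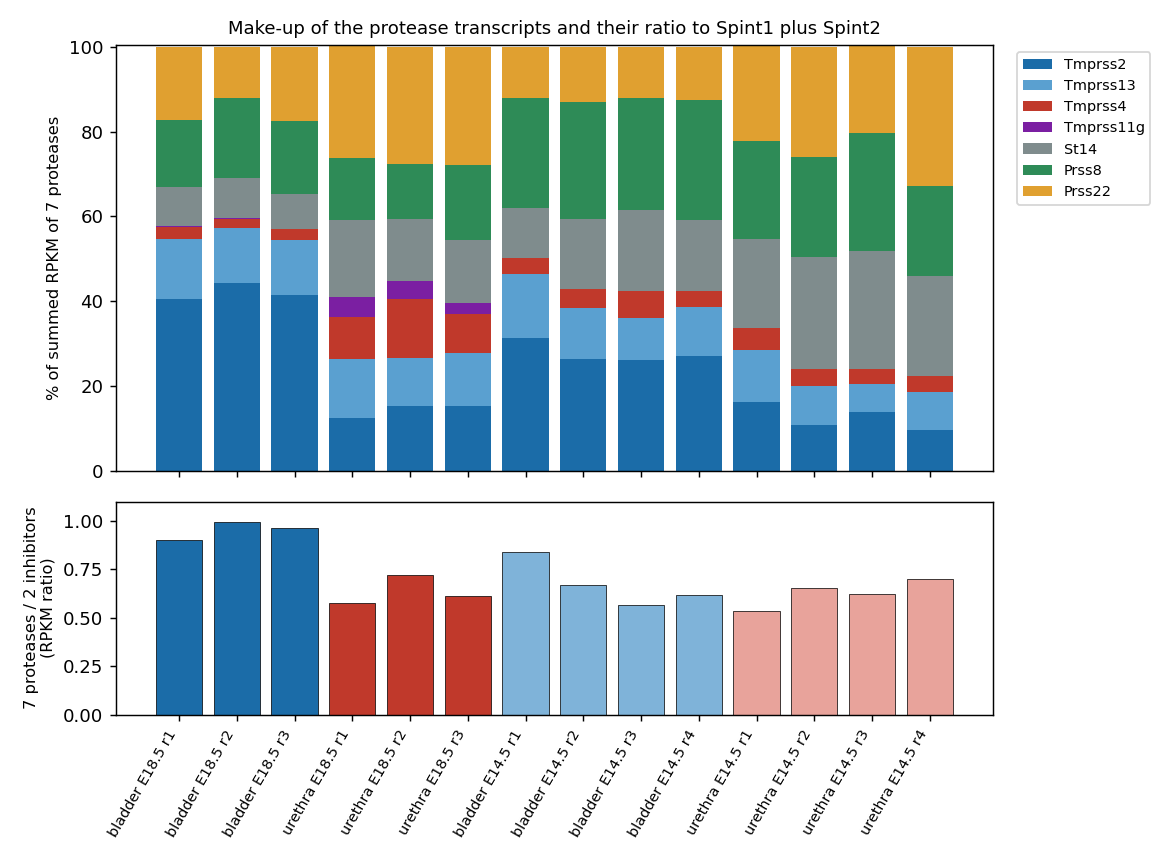
Top, share of each gene in the summed RPKM of the 7 proteases (percent, stacked to 100) in each of the 14 libraries; bottom, the RPKM of the 7 proteases over that of Spint1 and Spint2, from 0. Tmprss2 takes 40.6 to 44.3% in E18.5 bladder and 12.6 to 15.4% in E18.5 urethra, and the ratio is highest in E18.5 bladder, at 0.899 to 0.993.

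The neighbours of Tmprss11g on chromosome 5 were also higher in E18.5 than in E14.5 urethra. Of 7 Tmprss11 genes between 86231481 and 86745815, picked by position after their values had been seen, 6 were tested for stage, Tmprss11g among them. All 6 were higher at E18.5 in urethra (5 on the epithelial scale, without Tmprss11a), and 0 in bladder (on the epithelial scale Tmprss11g alone). By TMM 17.3% of all genes were higher at E18.5 in urethra and 19.9% in bladder, and on the epithelial scale 5.87% and 35.6%. The call of Tmprss11a was lost on leaving out any of 5 of the 7 urethral libraries, with adjusted p from 0.0569 to 0.09. The list of 8 basal and squamous epithelial genes summed to 4167 to 4805 CPM in E18.5 bladder, 10430 to 12410 CPM in E18.5 urethra, 1248 to 2559 CPM in E14.5 bladder and 1679 to 8463 CPM in E14.5 urethra. The list of 8 urothelial genes summed to 7160 to 10680 CPM in E18.5 bladder, 2266 to 2519 CPM in E18.5 urethra, 4309 to 7619 CPM in E14.5 bladder and 410.1 to 2106 CPM in E14.5 urethra. The part of these cell types in the protease results was not tested. Tmprss11b averaged 1.56 ± 0.671 CPM in E18.5 bladder, 61.5 ± 23.8 CPM in E18.5 urethra, 0.84 ± 0.869 CPM in E14.5 bladder and 0.778 ± 0.864 CPM in E14.5 urethra. Tmprss11d had 0 counts in bladder at both stages and 3.21 CPM in E18.5 urethra, at least 72.3-fold more than the 3 counts over the group that a count of 0 allows in E18.5 bladder. Bladder was lower than urethra at E18.5 for 5 of the 6 under both scalings (18.6% of all genes by TMM), Tmprss11e and Tmprss11f among them. The sixth, Tmprss11a, ran the other way, at 6.63 ± 1.66 CPM in E18.5 bladder against 2.45 ± 0.248 CPM in E18.5 urethra. Tmprss11c had 0 counts throughout, and how reads that match several of these like genes were counted is not given in the sources used here.

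Around Prss22 most genes tested were also lower in bladder at E18.5. Of the 7 Prss genes between 23833347 and 24045954 on chromosome 17, picked in the same way, 4 were tested at E18.5 and 3 were lower in bladder (2 on the epithelial scale, without Prss41), Prss22 itself not passing. By TMM 18.6% of all genes were lower in bladder at E18.5. On the epithelial scale 44.8% of all genes passed there, with 37.8% of all genes higher in bladder. The call of Prss41 was also lost without bladder replicate 1 (adjusted p = 0.0638), bladder replicate 2 (0.0548) or urethra replicate 1 (0.0649). Prss27, which encodes a protease known from squamous epithelia, had 3.16 ± 0.495 CPM in E18.5 bladder against 49.1 ± 12.9 CPM in E18.5 urethra, and was 16.1-fold lower in bladder (adjusted p = 2.15e-05). It was 46.7-fold higher in E18.5 than in E14.5 urethra (adjusted p = 0.000858), where it ran from 34.8 to 59.7 CPM at E18.5 and from 0 to 3.61 CPM at E14.5. Without E14.5 urethra replicate 1, which held the 3.61 CPM, the fold of Prss27 was 223. In bladder it was 14.4-fold higher at E18.5 (adjusted p = 0.00729). Its interaction did not pass (adjusted p = 0.405) but did without that library (0.00393). Prss32 was 4.78-fold lower in bladder at E18.5 (adjusted p = 0.000548) and 8.54-fold higher in bladder at E14.5 (adjusted p = 0.0229), with an interaction of log2 -5.32 (adjusted p = 0.00426). The E14.5 difference of Prss32 was 20.3-fold without urethra replicate 1, which also moved the interaction to log2 -6.57. That E14.5 difference did not pass without bladder replicate 1 (adjusted p = 0.0517), urethra replicate 2 (0.0668) or urethra replicate 4 (0.0671). The listed spans of Prss41 and Prss32 overlap on opposite strands.

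**Figure D5:**
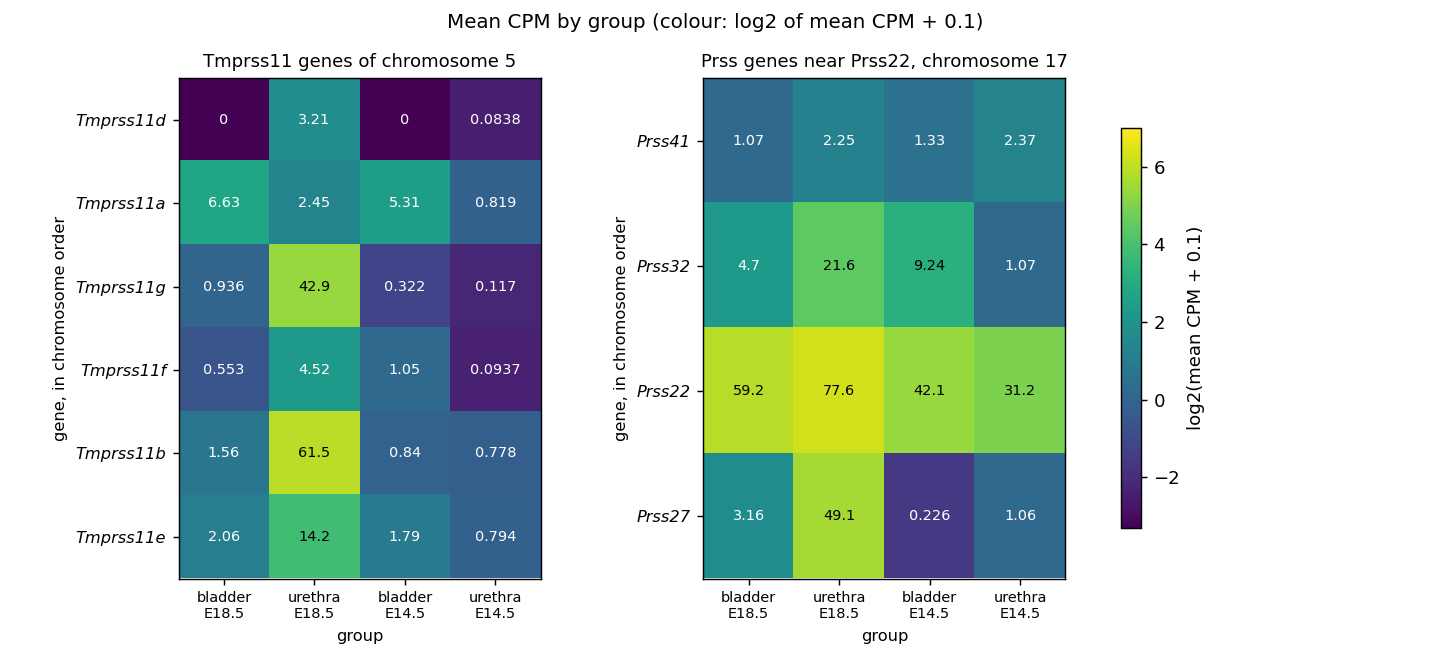
Mean CPM of each group (numbers in the cells; colour is log2 of the mean CPM plus 0.1) for the Tmprss11 genes of chromosome 5 and the Prss genes near Prss22 on chromosome 17, in chromosome order, for genes with at least 20 counts in all. The E18.5 urethra column is the highest for Tmprss11d, Tmprss11g, Tmprss11f, Tmprss11b, Tmprss11e, Prss32, Prss22 and Prss27, and Tmprss11a is highest in E18.5 bladder at 6.63 CPM.

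Other genes of the protease family were counted from lists. Of 15 other type II transmembrane proteases, 8 were tested at E18.5 and all 8 passed, where 37.9% of all genes did. In bladder 2 were higher and 6 lower under both scalings (19.3% and 18.6% of all genes by TMM). On the epithelial scale 44.8% of all genes passed, with 37.8% of all genes higher in bladder. Tmprss11a, Tmprss11b, Tmprss11d, Tmprss11e and Tmprss11f are among them and were already counted above as neighbours of Tmprss11g. Tmprss6, Hpn and Corin are the others. Hepsin (Hpn), which cuts the hepatocyte growth factor precursor and uromodulin, was 7.55-fold lower in bladder (adjusted p = 0.000128). Corin, which processes natriuretic peptides, was 13-fold higher (adjusted p = 0.00204), at 1.48 to 6.999 CPM in E18.5 bladder against 0.171 to 0.412 CPM in E18.5 urethra. The mesenchymal list was also highest in E18.5 bladder, and the part of such cells in the level of Corin was not tested. In urethra 7 of the 9 tested were higher at E18.5 than at E14.5 (6 on the epithelial scale), where 17.3% of all genes were (5.87% on that scale). The same neighbours of Tmprss11g are among these 7. In bladder 1 was higher and 1 lower at E18.5 (19.9% and 20.4% of all genes). At E14.5, 2 of the 6 tested were higher in bladder and 1, Hpn, was lower (23.1% and 20.9% of all genes). Hpn no longer passed on leaving out bladder replicate 3 (adjusted p = 0.054), urethra replicate 1 (0.0576) or urethra replicate 2 (0.0611).

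The kallikreins are secreted proteases of skin and other squamous epithelia. Of 9 listed, 4 were tested at E18.5 and 3 were lower in bladder (Klk13, Klk14 and Klk10) with none of the tested higher. Of all genes 18.6% were lower and 19.3% higher in bladder. Klk6, too low to be tested at E18.5, had 0 counts in E18.5 urethra and 0.411 CPM in E18.5 bladder, at least 12.8-fold more than 3 counts over the urethral group. Klk13 was 57.8-fold lower in bladder (adjusted p = 3.8e-05), at 0.381 to 0.876 CPM in E18.5 bladder against 18.9 to 40.5 CPM in E18.5 urethra. Of the 8 other inhibitors listed, 4 were tested at E18.5, with the secreted inhibitor-like protein Wfdc2 1.57-fold higher in bladder (adjusted p = 0.0234; 0.0509 to 0.085 without any of 4 libraries) and Serpine2, which blocks thrombin and urokinase, 3.27-fold lower (adjusted p = 0.00115). Spink5, the kallikrein inhibitor of skin, had 0 counts in E18.5 bladder against 0.224 to 1.12 CPM in E18.5 urethra, at least 13.9-fold lower in bladder by the 3 counts over the group that a count of 0 allows.

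Known targets and partners of the 9 proteins were counted in the same way. Of 16 listed, 15 were tested, and 2 were higher and 8 lower in bladder at E18.5 (4 and 4 on the epithelial scale, which Epcam, a listed target, itself helps to set). Of all genes 19.3% were higher and 18.6% lower in bladder at E18.5 by TMM. On the epithelial scale 44.8% of all genes passed there, with 37.8% of all genes higher in bladder. In urethra 11 were higher at E18.5 than at E14.5 and none was lower (6 and 0 on the epithelial scale). Over all genes 17.3% were higher and 15.7% lower there by TMM. On the epithelial scale 50.1% of all genes passed for stage in urethra, with 5.87% of all genes higher at E18.5. The sodium channel subunit Scnn1a had 3 to 4.33 CPM in E18.5 bladder against 41.5 to 53.3 CPM in E18.5 urethra, 13.4-fold lower in bladder (adjusted p = 1.2e-05). The subunit Scnn1b was 7.17-fold lower (adjusted p = 0.000144), while Scnn1g had 71.0 ± 12.45 CPM in E18.5 bladder and 56.5 ± 11.4 CPM in E18.5 urethra and did not pass. F2rl1, which encodes PAR2, was 2.18-fold lower in bladder at E18.5 (adjusted p = 0.00101).

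Urokinase was higher in bladder at E18.5. Its gene Plau had 51.7 to 66.5 CPM in E18.5 bladder against 16.8 to 22.1 CPM in E18.5 urethra, 3.02-fold higher in bladder (adjusted p = 0.000117), while at E14.5 its log2 fold change of 0.45 did not pass (adjusted p = 0.0809; 0.0454 without urethra replicate 1). Plau was higher at E18.5 than at E14.5 in both tissues, 5.89-fold in bladder (adjusted p = 1.56e-06) and 2.60-fold in urethra (adjusted p = 0.000206), with an interaction of log2 1.18 (adjusted p = 0.00493). Mst1r, the receptor of macrophage-stimulating protein, was also higher at E18.5 in both, 8.16-fold in bladder (adjusted p = 0.00014; 13.9-fold without E14.5 bladder replicate 1) and 3.68-fold in urethra (adjusted p = 0.00426). Its interaction did not pass (adjusted p = 0.172), but did without E14.5 bladder replicate 1 (0.000843) and on the epithelial scale (0.00625). On the epithelial scale the stage differences were log2 3.17 for Plau and 3.61 for Mst1r in bladder, and in urethra they no longer passed (adjusted p = 0.0505 for Plau and 0.0589 for Mst1r). The urokinase receptor gene Plaur was 5.82-fold higher in bladder at E14.5 (adjusted p = 0.000813) but did not pass at E18.5 (log2 0.37, adjusted p = 0.378; 0.0163 without urethra replicate 2, and 0.0349 on the epithelial scale). In urethra it was 6.09-fold higher at E18.5 than at E14.5 (adjusted p = 3e-04), with an interaction of log2 -2.15 (adjusted p = 0.0083; 0.236 on the epithelial scale). Plau is also made by mesenchymal and immune cells, and both marker lists were highest in E18.5 bladder; their part in its level was not tested.

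The genes most like each member over the 14 libraries were taken from 11680 genes with a mean of at least 5 CPM, by the root mean square difference of centred log2 CPM. For St14 these were Cpne3 (0.119), Mark2 (0.137) and Arhgef16 (0.139), and for Spint2 they were F11r (0.13), Epha1 (0.137) and Zbtb7a (0.146). Spint1 was nearest to Epn3 (0.13), Plpp2 (0.145) and Rab3d (0.171). For Prss8 the nearest were Ppard (0.148), C2cd2 (0.15) and Lactb2 (0.174), and for Prss22 Dgka (0.192), Serpinb8 (0.206) and Cdcp1 (0.216), the last of which encodes a surface protein that matriptase cuts. Tmprss13 was nearest to Mgst3 (0.221), Ehd4 (0.226) and Sema4a (0.249), and Tmprss2 to Cela1 (0.252), Me1 (0.264) and Lrrc8e (0.293). Tmprss4 was nearest to Mboat1 (0.298), Epb41l4b (0.33) and Gprc5a (0.333).

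The nearest to Tmprss11g were farther off than for any other member, at Tmprss11b (1.048), Ppbp (1.156) and Ceacam2 (1.175). This distance is not scaled by a gene's own spread. The SD of log2 CPM over the libraries was 3.223 for Tmprss11g, against 0.408 (St14) to 1.413 (Tmprss2) for the other members. The larger distance therefore does not show that its pattern is less matched. Ppbp, which encodes a platelet chemokine, ran from 0.591 to 1.41 CPM in E18.5 bladder and from 13.1 to 102 CPM in E18.5 urethra. Epb41l4b, like Tmprss4, was highest in E18.5 urethra and higher in bladder than in urethra at E14.5, at 84.4 ± 8.4 CPM in E18.5 bladder, 275 ± 22.2 CPM in E18.5 urethra, 150 ± 10.9 CPM in E14.5 bladder and 65.7 ± 40 CPM in E14.5 urethra. Likeness here describes levels across these libraries only.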

How the data were processed

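RNA was measured by poly(A) RNA-seq (100-base paired reads, a directional kit) in 14 libraries of pooled embryonic epithelium, per the labels' protocols. HISAT2 2.2.1, SAMtools 1.9 and GRCm38 are named in the submitters' processing notes, with counter, strand setting and annotation not given in the sources used here. The authors deposited raw counts per gene with exon lengths, in 1 table per stage, and both tables were joined by gene symbol. From these counts edgeR 4.0.16 in R 4.3.3 gave the tests (TMM scaling, filterByExpr, quasi-likelihood F test, Benjamini-Hochberg over all genes, threshold 0.05). Tissue was tested within a stage, and stage and the interaction over all 14 libraries. Standard errors were taken from the fold change and its F, and the 95% intervals are those of a normal distribution. They are narrower than the F test implies for so few libraries, so an interval can exclude 0 where the unadjusted p is above 0.05. CPM and RPKM used TMM library sizes. Library totals of 21101269 to 36810672 counts set the precision. The alternatives were DESeq2 1.42.0, other filters and scalings, a mesenchymal covariate, a replicate block and leaving out each library. Leaving out each library for the related and neighbouring genes, and subtracting the median of all genes on the epithelial scale, were added after the data had been seen. The tests were checked on simulated counts. Members and lists were chosen with earlier results of these data known. Named were all 9 members, up to 4 called genes of smallest adjusted p per list, comparison and direction, and the 3 genes most like each member; the 2 gene neighbourhoods were picked by position after values had been seen. Promoter windows came from RefSeq (GRCm38.p6), which matched 4 of the 9 members.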

Additional observations from a re-analysis of the deposited data

Results flagged for a closer look

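In E14.5 urethra, replicate 1 lay far from the other 3 libraries for Tmprss2, at 163.4 CPM, and for Spint1, at 337.3 CPM. Chance alone sets a library apart in this way in about 1 in 20 groups. The same library had the highest epithelial sum of its group, and the results without it stand beside each gene above.

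The difference between bladder and urethra changed with stage for 6 members, by the interaction test in edgeR. The log2 change was -3.278 for Tmprss4, -6.937 for Tmprss11g, -1.239 for St14, -1.009 for Prss8, -1.847 for Spint1 and -1.094 for Spint2. On the epithelial scale Tmprss4, Tmprss11g and Spint1 kept the call, and St14 (0.027), Prss8 (0.211) and Spint2 (0.095) did not pass. All 3 lay below the median of all genes on that scale, 1.317.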

How the results depend on the processing

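At E18.5 the count of members passing between tissues was 6, 0 with the mesenchymal covariate, and 3 to 5 on leaving out 1 library. For stage in bladder it was 1, and 2 with DESeq2, 5 with epithelial scaling, 0 with the mesenchymal covariate, 4 in a fit of the bladder libraries alone and 1 to 2 on leaving out 1 library. For the interaction it was 6, and 3 with epithelial scaling, 0 with the mesenchymal covariate and 4 to 9 on leaving out 1 library. It stayed at 7 between tissues at E14.5 on leaving out 1 library, and ran from 7 to 9 for stage in urethra. Less the median of all genes, which largely takes off the shift of epithelial scaling and so is not a separate check, 0 members had another sign than under TMM. Epithelial scaling moves every gene together, so signs relative to its 6 genes crossed 0 with that shift. Those that crossed were, for bladder against urethra at E14.5, St14 (-0.016) and Prss22 (-0.38), and at E18.5 St14 (0.012), Prss22 (0.029), Spint1 (0.143) and Spint2 (0.377). They turned for stage in bladder in Prss8 (0.098), Spint1 (0.065) and Spint2 (0.436), for stage in urethra in St14 (-0.078) and Prss8 (-0.113), and for the interaction in Tmprss2 (0.547), St14 (0.027), Prss8 (0.211), Prss22 (0.409) and Spint2 (0.095). With the mesenchymal covariate they turned at E18.5 in St14 (0.075), Prss22 (0.619), Spint1 (0.442) and Spint2 (0.696), for stage in bladder in Prss8 (0.287), Spint1 (0.54) and Spint2 (0.581), and for the interaction in Tmprss2 (0.287) and Prss22 (0.004). Where E18.5 bladder was compared, the covariate followed the groups, so those fits could not part it from tissue or stage. Apart from the common shift of epithelial scaling, the cause of the turned signs was not tested. The covariate fits called 3215 of all genes at E14.5 (7351 without it), 4 at E18.5 (6635), 591 for stage in bladder (7365) and 69 for the interaction (4183). Epithelial scaling called 9166 for stage in urethra (6031 with TMM) and 12772 for the interaction. Of the genes it called, 6620 of 7843 were higher in bladder at E18.5, 581 of 10320 at E14.5, 6508 of 6776 were higher at E18.5 in bladder, 1074 of 9166 in urethra, and 12488 of 12772 interactions were positive. Without E18.5 urethra replicate 1 the interaction called 2654 genes. The labels do not say whether same-numbered libraries share a litter, so the main tests left pairing out. Correlations between same-numbered libraries could not settle it (r from -0.225 to 0.455, over 0.1 in 3 of 4 pairs at E14.5 and 1 of 3 at E18.5). With a replicate block 4 members passed at E18.5, 8 at E14.5 and 8 for the interaction. Where a count of members stands without the number of all genes called, a change in the members cannot be told from a general one. No paired analysis was possible for stage because no litter spans both stages. Low counts limit Tmprss11g, which had 11 counts in E14.5 urethra.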
